A study of Mus musculus with 6 samples.

Results

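The SR proteins, the heterogeneous nuclear ribonucleoproteins (hnRNPs) and the paired Tra2 proteins were measured as transcripts in mouse embryonic stem cells. Their genes were taken by symbol: Srsf followed by a digit, any symbol beginning with Hnrnp, and Tra2a and Tra2b. The rule gave 31 genes of the 18193 with a named probe set, made up of 10 Srsf, 19 Hnrnp and 2 Tra2 genes. A probe set is a group of short probes that together measure a transcript, and the 31 genes had 102 of them. Each gene was represented by its brightest probe set, by the mean of all 6 arrays. The 71 others are counted beside it, and only some of them are named. Srsf7 is named only, since no probe set carried that symbol alone, and Hnrnpa3 and Hnrnpa1l2-ps2 were measured only by probe sets shared with other symbols and have no value here.

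RNA came from E14Tg2a, a feeder-independent embryonic stem cell line, in 3 groups of 2 arrays each. All groups were grown in N2B27, a serum-free medium, supplemented with 20 ng/ml of BMP4 and 1000 U/ml of LIF. The control cells were untreated, with no vehicle stated. The activin group received activin at 10 ng/ml for 2 h, and the SB431542 group received 5 µM of SB431542, an inhibitor of the activin and Nodal type I receptor kinases, for 24 h. Both treated groups were compared with the same untreated cells, so agent and time differ together between them. Whether the arrays of a group represent separate cultures is not stated, and a p-value here covers the spread from array to array alone, possibly technical.

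SR proteins carry RNA recognition motifs and a domain rich in arginine and serine, and many bind exonic enhancers and recruit the splicing machinery to nearby splice sites. The hnRNPs coat nascent transcripts, and several of them repress exons or splice sites, so the inclusion of an exon often depends on the balance between both families. Tra2a and Tra2b are SR-like proteins, and Tra2b binds purine-rich exonic enhancers. Many of these genes limit their own protein by switching splicing of their own transcript toward forms that are degraded by nonsense-mediated decay or kept in the nucleus. Different probe sets of such a gene can therefore read different transcripts, and which part of a transcript each probe set reads was not analysed here.

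Nearly all of these genes were bright. The log2 intensity of 30 of the 31 averaged 8 or more, and the same 30 lay above the background on every array. The background is the range of 27 probe sets for bacterial transcripts, from 3.00 to 5.09 on the log2 scale. That these transcripts were not added to the samples was assumed. Srsf12 was the exception, at 4.09 and 4.00 in control, 3.46 and 4.00 after activin, and 4.25 and 3.91 after SB431542, all within that range. The median log2 intensity of the 31 genes lay between 11.74 and 11.89 on the 6 arrays. The median gap between the 2 arrays of a group was 0.09 in control, 0.12 after activin and 0.06 after SB431542. The 3′ minus 5′ difference of the Gapdh quality probe sets was −0.14 and −0.08 on the SB431542 arrays and −0.06 to −0.05 on the other 4. The 3′ minus 5′ difference of the actin probe sets ranged from 0.20 to 0.32. The part of RNA quality in the results was not tested. No length correction applies to these intensities, so brightest and dimmest describe the signal of a probe set and not the amount of a transcript.

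After 24 h of SB431542, Tra2a was 2.37-fold above control, and Hnrnpm, Hnrnpa2b1, Hnrnpr, Tra2b, Hnrnpd and Srsf1 were above control by smaller amounts, from 0.24 to 0.39 on the log2 scale. Srsf5 was 1.25-fold below control. These 8 genes passed an adjusted p of 0.05 in limma when the prior variance followed the intensity, a setting called the intensity trend here. With limma's default prior no member passed, and the smallest adjusted p was 0.14, for Tra2a. At an unadjusted p under 0.05 the default prior marked 4 members, or 12.9%, beside 13.7% of all genes. The intensity trend marked 14, or 45.2%, beside 19.5% of all genes and 30.8% of the bright genes described below. Below, "rose" and "fell" refer to the intensity trend, with the default adjusted p beside it for members called by their brightest probe set. An adjusted p given alone for another gene or probe set is from the intensity trend, and so is every standard error given without a setting.

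The 8 genes called are 25.8% of the members, 7 higher and 1 lower. Of all 18193 genes 6.48% were called by the same rule, 4.25% higher and 2.23% lower. Bright genes were called more often: of 6493 genes with a mean log2 intensity of 8 or more, 13.1% were called. That background is nearer to the members than all genes are, but it is not matched to them in brightness. Their median log2 intensity was 11.74 to 11.89 on the 6 arrays, and no share was worked out at that level. With the default prior 0.0275% of all genes were called. The median log2 difference of the members was 0.07, beside −0.00 for all genes and 0.03 for the bright genes. Of the 31 members 22 lay above control, beside 8972 of all 18193 genes and 3635 of the 6493 bright genes. Within families the median was 0.12 for the 19 Hnrnp genes, of which 4 rose and 0 fell, and 0.01 for the 10 Srsf genes, of which 1 rose and 1 fell. The groups did not overlap for 19 of the 31 members, or 61.3%, 14 higher and 5 lower, where 46.3% of all genes did not overlap, 23.9% higher and 22.4% lower. Overlap was not counted among the bright genes alone.

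**Figure D1:**
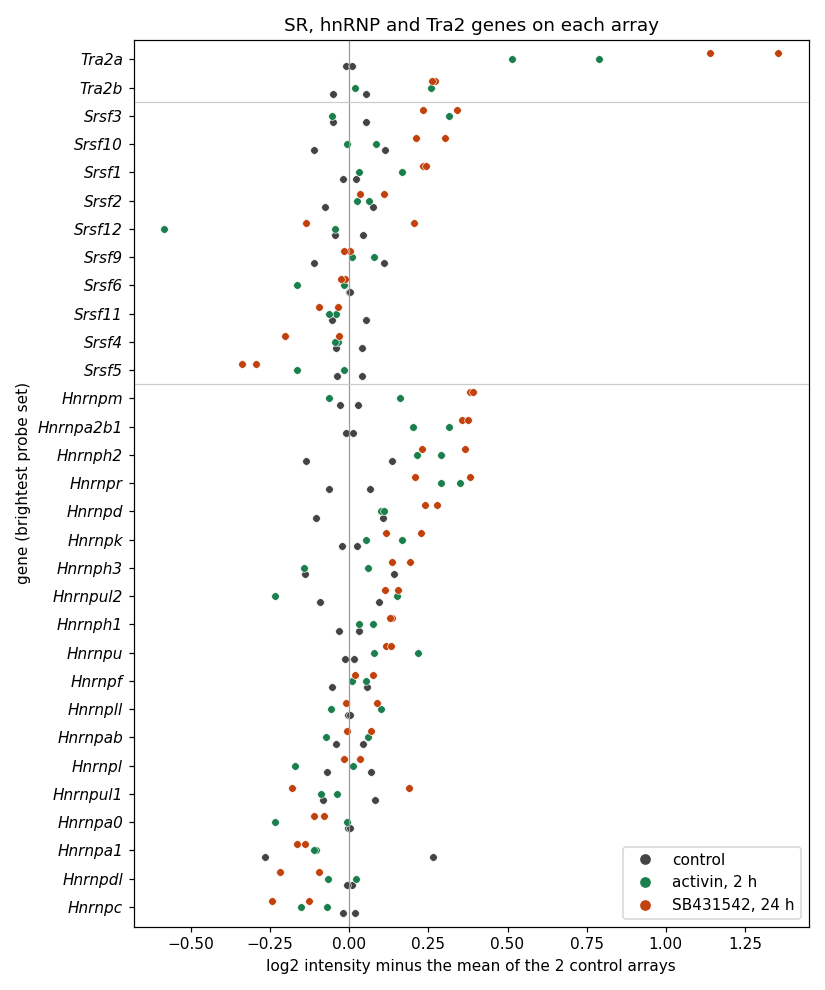
Log2 intensity of each of the 31 genes on each of the 6 arrays, as the difference from the mean of the 2 control arrays (horizontal axis), with genes in rows grouped as Tra2, Srsf and Hnrnp and ordered by their SB431542 difference. Each point is 1 array, coloured by group, and Tra2a stands apart at 1.25 on average after SB431542 and 0.65 after activin, while the group means of the other genes lie between −0.32 and 0.39 in both treated groups.

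The promoters of the 2 Tra2 genes, of Hnrnpa2b1 and of Srsf5 are printed because they include the largest rise, its paralogue, the Hnrnp gene with the smallest adjusted p and the gene that fell. Each is the 250 bases before the most upstream listed transcription start in RefSeq (GRCm38.p6), read 5′ to 3′ on the strand of the gene. They lie at chr6:49264053-49264302 on the minus strand for Tra2a, chr16:22266006-22266255 on the minus strand for Tra2b, chr6:51469895-51470144 on the minus strand for Hnrnpa2b1 and chr12:80945249-80945498 on the plus strand for Srsf5. Capitals mark matches, on either strand, to the CCAAT box (CCAAT), the GC box (GGGCGG), the TATA box (TATAAA), a Smad-type element (CAGAC), an E-box (CACGTG) and an Ets-type site (CCGGAAG).
Tra2a: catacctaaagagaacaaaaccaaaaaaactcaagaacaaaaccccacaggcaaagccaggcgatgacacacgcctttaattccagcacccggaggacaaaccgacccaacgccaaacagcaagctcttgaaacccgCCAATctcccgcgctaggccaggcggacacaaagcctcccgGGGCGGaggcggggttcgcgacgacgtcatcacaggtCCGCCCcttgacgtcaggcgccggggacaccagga
Tra2b: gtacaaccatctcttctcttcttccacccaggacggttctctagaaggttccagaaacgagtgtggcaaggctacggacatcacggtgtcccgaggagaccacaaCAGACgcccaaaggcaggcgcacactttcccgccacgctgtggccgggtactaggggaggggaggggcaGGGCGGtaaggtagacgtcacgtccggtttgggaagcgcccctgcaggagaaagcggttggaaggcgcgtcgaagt
Hnrnpa2b1: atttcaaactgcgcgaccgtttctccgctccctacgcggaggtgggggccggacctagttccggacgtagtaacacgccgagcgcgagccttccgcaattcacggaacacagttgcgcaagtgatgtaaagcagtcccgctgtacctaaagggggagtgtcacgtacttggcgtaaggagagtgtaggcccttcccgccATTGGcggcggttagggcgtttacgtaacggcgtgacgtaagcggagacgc
Srsf5: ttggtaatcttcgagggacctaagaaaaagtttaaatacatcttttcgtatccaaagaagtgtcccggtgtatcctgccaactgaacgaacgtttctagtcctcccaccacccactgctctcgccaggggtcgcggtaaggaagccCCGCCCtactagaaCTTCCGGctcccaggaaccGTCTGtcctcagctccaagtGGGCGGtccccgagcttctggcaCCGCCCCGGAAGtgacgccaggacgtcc
The Tra2a promoter held 1 CCAAT match and 2 GC box matches, and the Tra2b promoter held 1 GC box and 1 CAGAC match. Hnrnpa2b1 had 1 CCAAT match. Srsf5 had 3 GC box matches, 1 CAGAC match and 2 Ets-type matches, 1 of which overlaps a GC box. RefSeq's table gave a promoter for 29 of the 31 members and for 27025 genes in all. GC box letters were in 23 of the 29 member promoters, or 79.3%, and in 33% of all promoters. CCAAT was in 15 member promoters, or 51.7%, and in 34.5% of all, and the Ets-type letters were in 5, or 17.2%, and in 7.07% of all. CAGAC, the element bound by Smad proteins, was in 8 member promoters, or 27.6%, and in 42.2% of all. TATAAA was in 3, or 10.3%, beside 13% of all, and CACGTG in 1, or 3.45%, beside 6.04%. The median G and C content of the member promoters was 63.6%, beside 52% for all genes, which bears on how often letters rich in G and C occur. A match is a description of the letters and not a binding site.

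Tra2a was the member with the largest difference after SB431542. Its brightest probe set, 1454725_at, read 10.23 and 10.25 in control, 10.76 and 11.03 after activin and 11.60 and 11.38 after SB431542. The 3 groups do not overlap, with control lowest, activin between and SB431542 highest. The difference of SB431542 from control was 1.25 on the log2 scale. With limma's intensity trend its standard error was 0.10 and the adjusted p = 1.41e-11, and with limma's default prior they were 0.15 and 0.14. Of the 5 other Tra2a probe sets, 1455933_at rose too, from 5.61 and 6.07 in control to 6.83 and 6.69 (0.92, limma adjusted p = 0.0399), near the background. The other 4 differed by −0.19 to 0.33 and did not pass. When the 6 probe sets were averaged, the Tra2a difference was 0.46 and the call was lost (limma adjusted p = 0.14 with the intensity trend).

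Tra2b, its paralogue, which is known to splice a poison exon into its own transcript, moved by less. Probe set 1427432_a_at read 12.46 and 12.57 in control, 12.77 and 12.53 after activin and 12.78 and 12.77 after SB431542. Both SB431542 arrays lay above both controls, while 1 activin array lay among the controls and the other next to the SB431542 arrays. The difference of SB431542 from control was 0.27 (standard error 0.07, limma adjusted p = 0.0249 with the intensity trend and 0.478 by default). A second bright Tra2b probe set, 1419543_a_at, differed by 0.18 and did not pass, and the other 3 lay at or near the background.

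Among the SR genes, Srsf1, a general enhancer-binding activator of splicing, rose and Srsf5 fell. Srsf1 read 12.75 and 12.71 in control, 12.90 and 12.76 after activin and 12.96 and 12.97 after SB431542 with probe set 1434972_x_at. The SB431542 arrays were the 2 highest, and the difference from control was 0.24 (standard error 0.07, limma adjusted p = 0.0273 with the intensity trend, 0.472 by default). Another Srsf1 probe set, 1428099_a_at, rose by 0.40 (limma adjusted p = 0.000117), and the remaining 5 differed by 0.03 to 0.15 without passing. Srsf5 has 1 probe set, which read 12.97 and 12.89 in control, 12.91 and 12.76 after activin and 12.59 and 12.63 after SB431542. Its SB431542 arrays lay below the other 4, and the difference from control was −0.32 (standard error 0.07, limma adjusted p = 0.00249 with the intensity trend, 0.382 by default).

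The other 8 Srsf genes did not pass by their brightest probe sets. Srsf3, the smallest SR protein, differed by 0.29 (limma adjusted p = 0.0616 with the intensity trend), and Srsf10, which represses splicing when dephosphorylated, by 0.26 (0.112). Srsf2, also known as SC35 and with the brightest probe set of the Srsf genes, differed by 0.07, Srsf4 by −0.12, Srsf6 by −0.02, Srsf9 by −0.01, Srsf11 by −0.07 and Srsf12, with the dimmest, by 0.03. Less bright probe sets of 3 of these genes did pass. Srsf2 fell by 0.28 by 1415807_s_at, at 12.10 and 12.00 in control and 11.73 and 11.80 after SB431542 (limma adjusted p = 0.0352). Srsf6 fell by 0.31 by 1416721_s_at, at 11.25 and 11.07 in control and 10.83 and 10.88 after SB431542 (0.0405). Srsf11 rose by 0.86 by 1439095_at, a dim probe set at 5.58 and 6.34 in control and 6.79 and 6.85 after SB431542 (0.0429). In each of these 3 genes, then, the brightest probe set did not pass and a dimmer one did.

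Among the hnRNP genes, the brightest probe sets of 4 rose and none fell. Hnrnpa2b1 encodes the A2 and B1 proteins, which bind purine-rich motifs and also act in RNA transport. It read 12.65 and 12.67 in control, 12.98 and 12.86 after activin and 13.02 and 13.04 after SB431542, by 1420365_a_at. Control was lowest and SB431542 highest, without overlap, and SB431542 differed from control by 0.37, or 1.29-fold (standard error 0.07, limma adjusted p = 0.000258 with the intensity trend, 0.325 by default).

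All 3 further probe sets of Hnrnpa2b1 rose after SB431542, by more. Probe set 1433829_a_at read 11.48 and 11.40 in control, 11.82 and 11.91 after activin and 12.29 and 12.28 after SB431542. Its 3 groups were separate, in the same order as the brightest probe set, and SB431542 was 0.85 above control, or 1.8-fold (limma adjusted p = 4.08e-10 with the intensity trend, 0.162 by default). The other 2 were 0.81 (1434047_x_at, 3.34e-08) and 0.45 (1433830_at, 0.00402) above control.

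Hnrnpm, a protein known for regulating alternative splicing in the epithelial to mesenchymal transition, read 11.16 and 11.10 in control, 11.07 and 11.29 after activin and 11.51 and 11.52 after SB431542. The SB431542 arrays were above the other 4, and the difference from control was 0.39 (standard error 0.09, limma adjusted p = 0.00364 with the intensity trend, 0.338 by default). Hnrnpd encodes AUF1, which binds AU-rich elements of messenger RNAs. It read 12.44 and 12.23 in control, 12.43 and 12.44 after activin and 12.61 and 12.57 after SB431542. The SB431542 arrays were again the 2 highest, with a difference of 0.26 (standard error 0.07, limma adjusted p = 0.0294, 0.47 by default). Hnrnpd probe set 1457568_at differed by 0.00 and 1458273_at, within the background, by −0.00, and neither passed. With the Hnrnpd probe sets averaged, the difference was 0.09 and the call was lost (limma adjusted p = 0.802 with the intensity trend).

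Hnrnpr, a close relative of Syncrip, read 11.46 and 11.33 in control, 11.69 and 11.75 after activin and 11.60 and 11.78 after SB431542. Both treated groups lay above control and overlapped each other, and SB431542 differed from control by 0.29 (standard error 0.08, limma adjusted p = 0.0269 with the intensity trend, 0.426 by default). Its 1437526_x_at rose by 0.48 (0.00525), while 1438807_at, at 7.13 and 7.35 in control and 6.43 and 6.78 after SB431542, differed by −0.64 without passing (0.0777). Probe set 1452030_a_at differed by 0.18 (limma adjusted p = 0.346) and 1429232_at, within the background, by −0.15, and neither passed. Averaged over its probe sets, Hnrnpr differed by 0.03 and the call was lost (limma adjusted p = 0.917 with the intensity trend).

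The remaining 15 Hnrnp genes did not pass by their brightest probe sets. Over all 23 members that did not pass, the difference ran from −0.19 for Hnrnpc to 0.30 for Hnrnph2. Hnrnpc, which binds uridine tracts, read 13.46 and 13.43 in control, 13.37 and 13.29 after activin and 13.20 and 13.32 after SB431542 (limma adjusted p = 0.0786 for SB431542 against control). Hnrnpdl, a relative of Hnrnpd and the gene with the brightest Hnrnp probe set, read 13.64 and 13.62, 13.65 and 13.57, and 13.41 and 13.54 in the same order of groups (−0.16, 0.147). In both genes the SB431542 arrays were below the controls. Hnrnpul2, with the dimmest signal of the Hnrnp genes, differed by 0.13. Hnrnpa1, a widely studied exon repressor, had control arrays at 11.10 and 10.57, the widest control gap of all members, and differed by −0.15. The annotation pairs other probe sets of Hnrnpa1 with further loci, and these were left out. Whether the probes used here match those loci too was not tested. Hnrnpl, which binds CA repeats, differed by 0.01, Hnrnpll by 0.04, Hnrnpf, a binder of guanine runs, by 0.05, Hnrnpab by 0.03, Hnrnpul1 by 0.00 and Hnrnpa0 by −0.10. Hnrnph3 differed by 0.16, Hnrnpk by 0.17, Hnrnpu by 0.12 and Hnrnph1 by 0.13.

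The less bright probe sets held larger differences than several of the brightest. Over all 102 probe sets 19 rose and 4 fell after SB431542, or 22.5%, where 4.98% of all 45037 probe sets were called, 3.38% higher and 1.6% lower. Most of the 45037 are dimmer than the members' brightest probe sets, and no share among bright probe sets was worked out in any comparison. With limma's default prior 0 of the 102 passed after SB431542, after activin or between the treatments. By any probe set 13 of the 31 genes were higher and 4 lower, with Hnrnpdl in both counts, and 6 were higher by a less bright probe set alone: Hnrnpc, Hnrnpdl, Hnrnph1, Hnrnpk, Hnrnpu and Srsf11. Probe sets of a gene share their source and are not independent. A gene with more probe sets also has more chances to be counted. In the Affymetrix naming, the ending x_at marks probes that may match other sequences, and s_at marks probes shared by several transcripts.

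Hnrnph1, which binds guanine runs near splice sites, showed the widest split. Its brightest probe set, 1415872_at, read 12.52 and 12.59 in control, 12.58 and 12.63 after activin and 12.69 and 12.68 after SB431542 (0.13, limma adjusted p = 0.325). Its other probe set, 1437267_x_at, read 7.30 and 6.85 in control, 7.98 and 8.20 after activin and 9.13 and 8.78 after SB431542. The 3 groups of this probe set were separate, and SB431542 was 1.88 above control, or 3.69-fold (standard error 0.16, limma adjusted p = 4.18e-10 with the intensity trend, 0.132 by default). That was a larger difference than in any other of the 102 probe sets, on probes that may match other sequences.

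**Figure D2:**
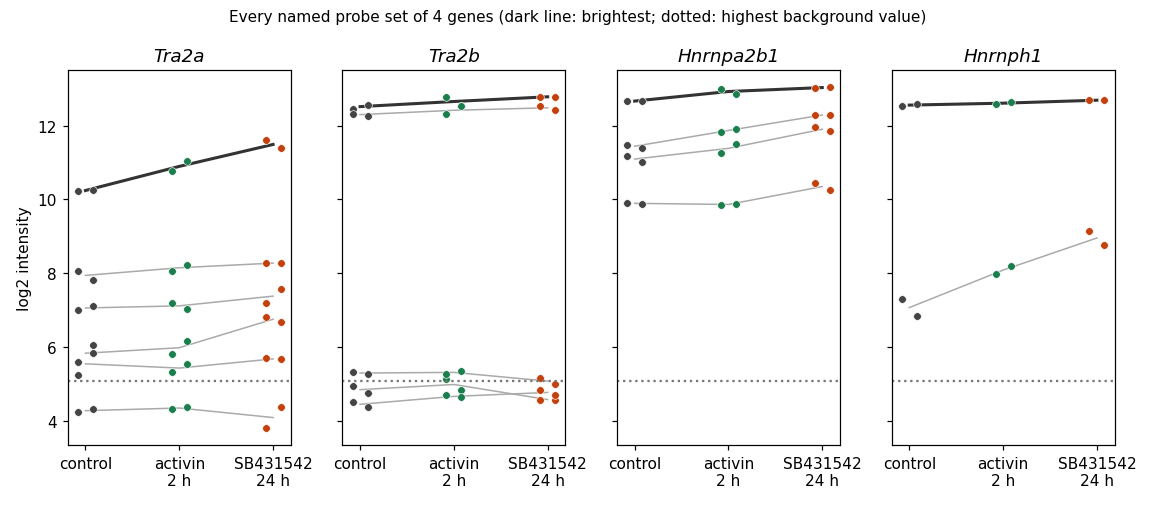
Log2 intensity (vertical axis) of every named probe set of Tra2a, Tra2b, Hnrnpa2b1 and Hnrnph1 in the 3 groups. Points are single arrays, lines join the group means, the dark line is the brightest probe set of the gene and the dotted line the highest background value, 5.09. The 1437267_x_at line of Hnrnph1 climbs from 7.30 and 6.85 in control to 9.13 and 8.78 after SB431542, while its dark line stays between 12.52 and 12.69.

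Hnrnpc and Hnrnpdl had probe sets on both sides of control. By 1418693_at, Hnrnpc read 10.94 and 10.83 in control, 11.14 and 11.22 after activin and 11.45 and 11.43 after SB431542, a rise of 0.55 (limma adjusted p = 2.29e-05) beside −0.19 by the brightest. Its dimmest probe set lay within the background and differed by −0.52. For Hnrnpdl, 1456698_s_at read 10.43 and 10.41 in control, 10.94 and 11.00 after activin and 10.95 and 11.07 after SB431542, a rise of 0.59 (limma adjusted p = 2.02e-05). Control was lower than both treated groups, which overlapped. Another Hnrnpdl probe set, 1420093_s_at, read 11.37 and 11.33, 11.43 and 11.29, and 10.97 and 11.05 in that order, and fell by 0.34 after SB431542 (0.011). The 7 Hnrnpdl probe sets thus ran from −0.34 to 0.59.

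Hnrnpk, which binds cytosine-rich sequence, rose by 0.44 by 1423684_at, from 12.23 and 12.24 to 12.71 and 12.63 (limma adjusted p = 7.24e-05), beside 0.17 by its brightest probe set. Hnrnpu, a nuclear scaffold protein, rose by 0.25 by 1423050_s_at (0.0297), beside 0.12. In Hnrnpf a probe set at 0.57 (1437099_x_at) did not pass (0.457), with array values of 11.79 and 11.58 in control and 12.46 and 12.04 after SB431542.

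**Figure D3:**
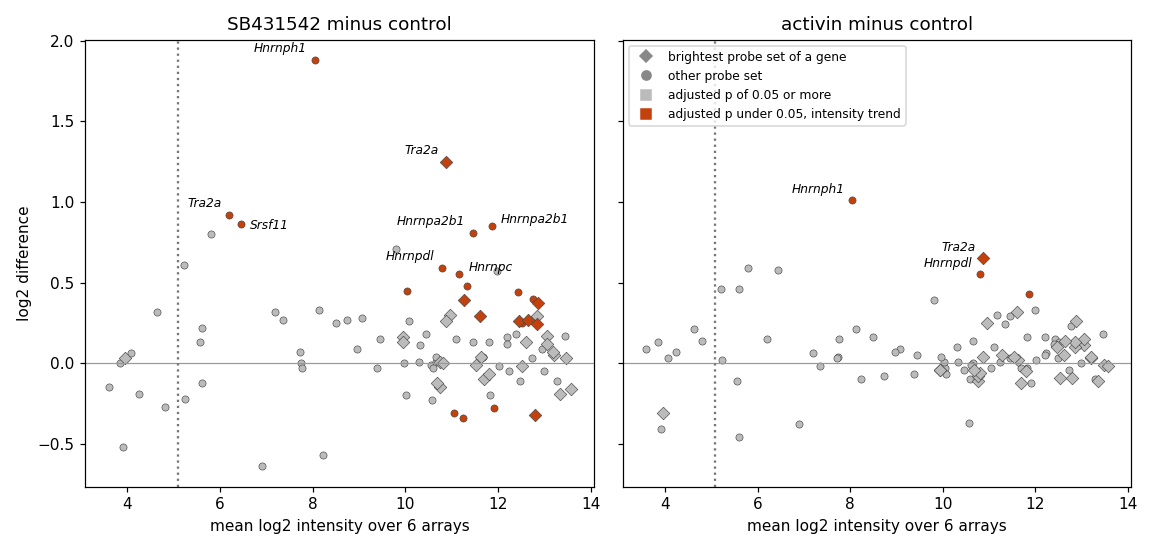
Log2 difference from control (vertical axis) against the mean log2 intensity over the 6 arrays (horizontal axis) for the 102 probe sets, after SB431542 on the left and after activin on the right. Diamonds are the brightest probe set of a gene and circles the others, orange marks an adjusted p under 0.05 with the intensity trend, and the dotted line is the highest background value, 5.09. On the left 19 probe sets are orange above 0 and 4 below, and on the right 4 are orange, all above 0.

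Repeating quantile normalization ended the SB431542 calls of Hnrnpd, Hnrnpr, Srsf1 and Tra2b (differences of 0.17 to 0.24, limma adjusted p from 0.0627 to 0.138 with the intensity trend) and added Hnrnpc as lower (−0.19, 0.049), which left 3 higher and 2 lower. Shifting each array to a common median left Tra2a as the sole call. That median is taken over all probe sets, most of them far dimmer than these genes. The differences moved little, from 0.37 to 0.34 for Hnrnpa2b1 and from −0.32 to −0.34 for Srsf5. Calls were also fewer when either SB431542 array was left out.

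After 2 h of activin, Tra2a was the member that rose by its brightest probe set, and it was 1.57-fold above control. Its activin arrays, at 10.76 and 11.03, lay above both controls, at 10.23 and 10.25, a difference of 0.65 (standard error 0.10, limma adjusted p = 0.000246 with the intensity trend and 0.789 with the default prior). That 1 gene is 3.23% of the members, where 0.148% of all genes, 0.137% in the higher direction, and 0.323% of the bright genes were called. With limma's default prior the count was 0 members and 0 of all genes, with 1 member at an unadjusted p under 0.05, or 3.23%, beside 5.24% of all genes. With the intensity trend 5 members were under it, or 16.1%, beside 6.78% of all genes and 8.49% of the bright genes. The groups did not overlap for 10 members, or 32.3%, beside 30.1% of all genes.

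The other 30 members ran from −0.31 for Srsf12, at background, to 0.32 for Hnrnpr, and did not pass. The median of the 31 was 0.03, beside −0.01 for all genes and −0.02 for the bright genes. The next largest differences were those of Hnrnpr (limma adjusted p = 0.112 with the intensity trend) and of Hnrnpa2b1, at 0.26 (0.101), and in both the activin arrays lay above the controls. On the lower side, Hnrnpa0 read 11.76 and 11.77 in control, 11.76 and 11.53 after activin and 11.69 and 11.66 after SB431542, a difference of −0.12 for activin (0.834). Tra2b differed by 0.14 (0.739), Srsf1 by 0.10, Hnrnpd by 0.10, Hnrnpm by 0.05, Srsf5 by −0.09 and Hnrnpc by −0.11, none of which passed.

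Over all 102 probe sets, 4 rose and none fell after activin, or 3.92%, beside 0.215% of all 45037 probe sets, 0.195% in the higher direction. Besides that of Tra2a these were 1437267_x_at of Hnrnph1, at 1.01 or 2.02-fold (standard error 0.16, limma adjusted p = 0.000898), 1456698_s_at of Hnrnpdl, at 0.55 (0.000868), and 1433829_a_at of Hnrnpa2b1, at 0.43 (0.00259). Comparisons of both treatments use the same control arrays, so their differences are not independent. Side by side, the differences after activin and after SB431542 were 0.65 and 1.25 for Tra2a, 1.01 and 1.88 for the Hnrnph1 probe set, 0.43 and 0.85 for the Hnrnpa2b1 probe set and 0.55 and 0.59 for the Hnrnpdl probe set. Without activin array 2, 0 members passed, with Tra2a at 0.52 (limma adjusted p = 0.0605), and the Hnrnph1, Hnrnpdl and Hnrnpa2b1 probe sets had adjusted p-values of 0.0813, 0.0524 and 0.108. Without control array 1, 2 members passed, and averaging the probe sets of each gene left Tra2a at 0.17 (0.961).

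The activin and SB431542 arrays were then compared directly, a contrast that does not use the control means and in which agent and time cannot be told apart. Tra2a and Hnrnpm were lower after activin than after SB431542, by 0.59 and 0.34 on the log2 scale. For Tra2a the activin arrays, at 10.76 and 11.03, were below the SB431542 arrays, at 11.60 and 11.38 (standard error 0.10, limma adjusted p = 0.000123 with the intensity trend, 0.405 by default). For Hnrnpm the activin arrays, at 11.07 and 11.29, were below 11.51 and 11.52 (standard error 0.09, 0.023 with the intensity trend, 0.543 by default). These 2 are 6.45% of the members, beside 3.37% of all genes, 1.26% higher and 2.12% lower. The share was near the 6.21% of the bright genes. With the default prior 0 members and 0.033% of all genes were called, and 2 members were under an unadjusted p of 0.05, or 6.45%, beside 10.3% of all genes. With the intensity trend 7 were under it, or 22.6%, beside 14.6% of all genes and 23.1% of the bright genes. The median over the members was −0.06, and the groups did not overlap for 13 members, or 41.9%, beside 42.4% of all genes.

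The 29 members that did not pass in the direct contrast ran from −0.35 for Srsf12, at background, to 0.23 for Srsf5 (limma adjusted p = 0.0749). Tra2b differed by −0.13 (0.563). Over the 102 probe sets 1 was higher after activin and 8 lower, or 8.82%, beside 2.27% of all probe sets, 0.802% higher and 1.47% lower. Hnrnpa2b1 was lower after activin by all 3 of its less bright probe sets, at −0.42, −0.49 and −0.52 (0.000565, 0.00358 and 0.000183), and its brightest differed by −0.11 without passing. Hnrnph1 was lower by 1437267_x_at, at −0.87 (0.00106), and Hnrnpk by 1423684_at, at −0.29 (0.0208). Hnrnpa1 was lower by 1436549_a_at, which read 10.83 and 10.53 in control, 10.32 and 10.32 after activin and 10.67 and 10.69 after SB431542 (−0.36, 0.0386). The 1 higher probe set was 1420093_s_at of Hnrnpdl, at 0.34 (0.017). When quantile normalization was repeated, the call of Hnrnpm was lost (−0.29, 0.0659) and Srsf5 was called higher after activin (0.28, 0.0126), which gave 1 higher and 1 lower. The count was 4 without activin array 2, and 1 without activin array 1, SB431542 array 1 or SB431542 array 2.

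Other genes of the splicing pathway were followed as lists of known function, after SB431542 first. Their counts stand beside the 6.48% of all genes and 13.1% of the bright genes called in that comparison. Of 7 measured hnRNP proteins under other symbols, Pcbp2, a poly-C binding protein, rose (0.21, limma adjusted p = 0.0447 with the intensity trend) and 0 fell, with a list median of 0.02. Of 16 SR-related coactivators and exon junction proteins 3, or 18.8%, were called: Scaf11 (0.35, 0.0221) and Scaf8 (0.34, 0.0494) rose and Scaf4 (−0.39, 0.0451) fell, with a median of 0.14. The Scaf proteins join an arginine and serine rich region to transcription by RNA polymerase II. Of 12 kinases and import receptors that phosphorylate or carry SR proteins, 0 passed, with Dyrk1a at 0.34 (0.153) and Clk3 at 0.30 (0.323) and a median of 0.08.

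Of 35 other splicing regulators of tissues and stem cells, 6 rose and 2 fell after SB431542, or 22.9%, with a median of 0.14, and 22 of the 35 were as bright as log2 8. Mbnl3, of the muscleblind family, which is known for repressing exon patterns typical of embryonic stem cells, read 8.59 and 8.38 in control, 8.28 and 8.39 after activin and 9.34 and 9.31 after SB431542. Its SB431542 arrays stood above the other 4, by 0.84 against control (limma adjusted p = 2.11e-05). Mbnl2 (0.70, 0.00243), the uridine-binding Tia1 (0.61, 0.000187), Celf1 (0.28, 0.0189) and Celf2 (0.64, 0.0245) also rose. Mbnl1, another muscleblind gene, differed by −0.33 without passing (limma adjusted p = 0.443). The sixth that rose, Sfpq (0.33, 0.0338), and the pair that fell, Khdrbs3 (−0.46, 0.0371) and Ewsr1 (−0.32, 0.0413), are named after their values were seen. Of 38 core spliceosome proteins, 4 rose and 2 fell, or 15.8%, near the share of the bright genes, to which 37 of them belong, with a median of −0.05. Among them were Snrnp40 (0.49, 0.000987), Sf3b2 (0.37, 0.00773) and Snrpf (0.30, 0.0242), which were higher, and Prpf8 (−0.29, 0.0208) and Dhx38 (−0.46, 0.0293), which were lower. The remaining one, Prpf19 (0.24, 0.0298), rose and is named after its value was seen. Of 7 nonsense-mediated decay factors, 0 passed, with Smg1 at 0.36 (0.107) and Smg6 at 0.30 (0.367) and a median of 0.12.

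With limma's default prior 0 genes of these 6 lists passed in any of the 3 comparisons. After activin 0 passed with the intensity trend either, and the list medians lay between −0.02 and 0.07. Between activin and SB431542, Mbnl3 (−0.99, limma adjusted p = 1.8e-06), Mbnl2 (−0.73, 0.00284) and Tia1 (−0.51, 0.00375) were lower after activin, and Dhx38 (0.49, 0.0322) was higher.

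Markers of the labelled cells and of other cell types moved beside these differences, and their part in the results was not tested. All 8 embryonic stem cell markers were above background on every array, and 5 of them, Pou5f1 (−0.43), Utf1 (−0.33), Dppa5a (−0.28), Tdgf1 (−0.26) and Nanog (−0.24), fell after SB431542 with the intensity trend. Their summed intensity was 51058 to 52143 in control, 52020 to 52776 after activin and 44038 to 45168 after SB431542. Of 7 measured trophoblast markers, Ascl2 (2.03), Hand1 (1.09) and Gata3 (1.29) rose and Eomes (−2.32) fell after SB431542, and Elf5 was at background. Gata3 was at or near the background in control, at 5.75 and 4.91. Krt7 (0.54, limma adjusted p = 0.0984) and Cdx2 (−0.11, 0.865) did not pass. The trophoblast sum was 905 to 943 in control, 895 to 999 after activin and 1272 to 1371 after SB431542. The fibroblast markers summed to 338 to 369, 406 to 468 and 281 to 303 in that order, with 1 of 8, Col1a1 (−0.98), lower after SB431542 and Col3a1, Lum and Fbln2 at background. The extraembryonic endoderm markers summed to 470 to 543, 451 to 559 and 450 to 460, with 0 of 8 called. Only 2 of these 8, Dab2 and Lama1, were above background on every array. The neural markers summed to 721 to 843, 758 to 837 and 707 to 782, with 1 of 8, Pax6 (0.74), higher after SB431542 and Sox1, Zic1 and Dcx at or near background. Of the 8 neural and the 8 fibroblast markers, 4 each were above background on every array. In bulk RNA, fewer cells of a type and less RNA per cell cannot be told apart.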

How the data were processed

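Per the submitters' processing notes, intensities were made with RMA, which corrects background, normalizes by quantiles and summarises probe sets. The deposited intensity values are linear whole numbers from 6 to 26405, with column medians of 37 to 49. The medians thus differ between arrays, at 46 and 37 for the 2 controls. Whether all columns had been normalized together was not tested. The values were converted to log2, and 64 control probe sets were left out, leaving 45037. All 6 arrays entered a single limma model (version 3.58.1, R 4.3.3) with a mean for each group, once with eBayes defaults and once with an intensity trend and robust estimation. Each probe set had 3 residual degrees of freedom, to which the prior added 2.5 by default and a median of 34.3 with the trend. The Benjamini-Hochberg adjustment ran over all 45037 probe sets, with a threshold of 0.05. The fits were tested on simulated data.

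Values on every array were given for both Tra2 genes, members past the threshold and the 3 largest differences each way against control. The brightest and dimmest genes and genes with discordant probe sets were named. Among the latter, Hnrnpab and Hnrnpl probe sets ran from −0.10 to 0.46 and from −0.08 to 0.46 after activin, with the highest on dim probe sets. Of the lists, up to 5 called genes were named, otherwise the 2 with the smallest p. The less bright probe sets and arrays named beyond this were picked with their values in view. The members and lists were chosen with earlier results of these data known. Groups came from the titles, 1 of which spells the compound SB432542. The series text names a smaller version of the array than the 45101 deposited probe sets. Arrays give no depth, and their number limits precision.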

Additional observations from a re-analysis of the deposited data

How the results depend on the processing

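With limma's default prior, 0 members passed in each comparison, under all alternatives run except that shifting the columns to 1 median gave 1 after SB431542. The intensity trend gave 8 after SB431542, 1 after activin and 2 between the treatments. With it, the SB431542 count was 5 after repeated quantile normalization (3 higher, 2 lower), 1 after the shift and 5 with the probe sets of a gene averaged. Averaging lost the SB431542 calls of Tra2a (0.46), Tra2b (0.06), Hnrnpr (0.03), Hnrnpd (0.09) and Srsf1 (0.16). It gained those of Hnrnph1 and Hnrnpk. The activin count was 0 after the shift and 0 after averaging, and the count between the treatments was 0 after the shift and 2 after quantile normalization (1 higher, 1 lower). The shift also moved the activin median from 0.03 to −0.03. Leaving out 1 array at a time kept the default counts from 0 to 0 and gave 3 to 10, 0 to 2 and 1 to 4 with the trend, with medians of 0.07 to 0.14, −0.01 to 0.05 and −0.08 to −0.04, in that order of comparisons.

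By the replicate numbers of the titles, deviations of same-numbered arrays correlated weakly, at −0.141, 0.0224 and −0.0929 over all 45037 probe sets. Many of these probe sets are dim, so the values do not settle whether arrays were paired. The numbers in the descriptions differ from those in the titles, which were used. A replicate block gave 10, 1 and 2 members with the trend and 0 by default, and so did the block with the activin numbers exchanged, an alternative chosen after seeing the data. Of 355 recalculated differences of single genes and probe sets, 304 kept their direction and side of the threshold, 49 lost their call, 2 gained one and 0 reversed. Most of these were picked for being called or extreme, so few could gain a call. Other members did gain calls after SB431542 with the trend: Hnrnph2 and Srsf3 under the replicate block, and Hnrnph1 and Hnrnpk when probe sets were averaged. A pair of arrays a group and low signal limit what the dim probe sets can show, and the cause of each change was not tested.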
